A study of Mus musculus with 60 samples.

Results

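Immediate early genes are the genes a neuron transcribes first after a burst of activity, without waiting for new protein. Calcium and kinase signals act on transcription factors that already sit at their promoters, and the messages are usually short-lived. In the striatum they are a classic readout of dopamine receptor signalling and of antipsychotic drugs such as haloperidol. The list examined here held 10 of these genes: the transcription factors Fos, Fosb, Fosl2, Junb, Egr1, Egr3, Nr4a1 and Npas4, the synaptic protein gene Arc and the phosphatase gene Dusp1. Members were taken by matching Ensembl identifiers of the deposited gene table, which has 9066 genes, to symbols. Egr3 (ENSMUSG00000033730) was the 1 listed gene with a row in this table, and it had 3 rows among the 114691 of the exon table. The other 9 had no row in the tables used here and were not analysed here, so that correlation between members could not be computed and Egr3 was set against all other genes instead. Egr3 encodes a zinc finger transcription factor of the early growth response family, which binds GC-rich promoter elements and is induced in striatal neurons by synaptic activity.

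The data are polyA RNA-seq libraries, 1 per mouse, of striatum dissected by hand from 60 mice. The mice belong to HS-CC, an outbred stock, and according to the study's methods they descended from generations bred selectively for their response to haloperidol. The labels give the sex and whether an animal was a catalepsy responder, catalepsy being an immobility that haloperidol can bring on. Among the females 13 were non-responders and 15 responders, and among the males 17 and 15. No drug, dose, age or time between test and dissection was given in the sources used here, so the values are levels in mice of a known phenotype and not a time course after a stimulus.

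Values are read counts multiplied by an upper quartile factor per library, called scaled reads below. The libraries held 4913122 to 21872744 recovered reads and fell into 17 shallow libraries (up to 9507322) and 43 deep ones (from 12051239), with 4 shallow libraries in each group but the male non-responders, who had 5. Recovered reads were summed over the 9066 genes of the deposited gene table, so they are not the number of reads sequenced. The shallow libraries were those of mouse 26 and of mice 41 to 56. Of the marker symbols for the dissected tissue, 9 of 12 for striatal projection neurons were in the table, among them Ppp1r1b, Adora2a, Drd2, Penk and Tac1, and none of these 9 was at 0 in all mice. The 12 symbols name Drd1 also as Drd1a, and neither had a row. Markers of other cells were present too: 4 of 12 for cortical glutamatergic neurons, 5 of 8 for astrocytes, 6 of 8 for oligodendrocytes, 5 of 8 for microglia and 1 of 8 for endothelial cells, while the choroid plexus and ependyma list had 0 of 8. The summed level of the cortical markers ranged from 4413 to 15370 scaled reads in non-responders and from 2457 to 17050 in responders. A cortical score, the mean z-score of these 4 genes, and a 3′ bias were computed for each library. The 3′ bias was the median slope of log2 exon values along 5209 genes from first to last exon. The mean of each exon row over all mice was subtracted first, so the bias is relative to the average library. It does not give the absolute 3′ bias of a typical library. The 3′ bias had a median of -0.019, with -0.254 in shallow libraries (-0.316 to -0.013) and 0.011 in deep ones (-0.159 to 1.478). It was 1.48 in mouse 63 (female responder), 0.907 in mouse 5 (female non-responder), and next highest in mice 4 and 62.

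Egr3 was detected in every mouse. Over the 60 mice its value had a lowest of 600.5 scaled reads, a median of 1175 and a highest of 1868, a 3.11-fold range, with a mean of 1216 ± 281 (SD, n = 60). The lowest and the highest value both came from female responders, mouse 63 and mouse 15. At the low end followed mouse 42 (712.3, male non-responder), mouse 29 (784.9, female non-responder) and mouse 5 (835.1, female non-responder). At the high end stood mouse 53 (1829, female non-responder), mouse 36 (1772, female responder) and mouse 55 (1758, female responder). Values above 1500 were found in 6 non-responders and 4 responders, and values below 900 in 4 non-responders and 3 responders, so both ends of the range held mice of both phenotypes.

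This spread was wider than the counting error. Egr3 was counted with 265 reads in mouse 42 up to 2646 reads in mouse 36, which alone gives a coefficient of variation (CV) between 1.94% and 6.14%. The observed CV was 0.231, and counting accounted for 1.94% of its square. The median CV of the 8535 genes averaging at least 10 scaled reads was 0.163, and 77.9% of them varied less than Egr3. In the count model of edgeR the biological CV of Egr3 was 0.225, above the 0.180 of the trend at its level, and 78.9% of genes had a smaller one.

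The catalepsy phenotype did not separate the Egr3 values. In female non-responders Egr3 ranged from 784.9 to 1829 scaled reads with a median of 1226, and in female responders from 600.5 to 1868 with a median of 1174. In male non-responders it ranged from 712.3 to 1755 with a median of 1146, and in male responders from 957.9 to 1640 with a median of 1176. In the order of medians, female non-responders came first, then male responders, female responders and male non-responders, and every neighbouring pair overlapped over most of its range. The 4 groups together accounted for 0.383% of the variance of log2 Egr3.

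**Figure D1:**
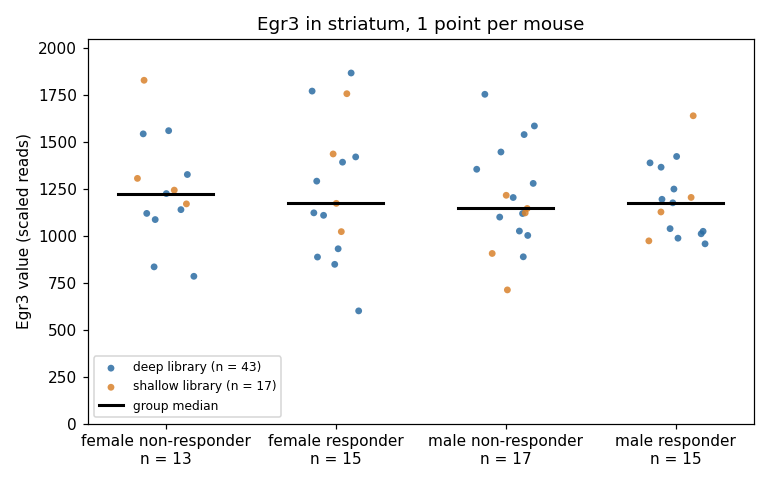
Egr3 value in scaled reads (vertical axis, from 0) for each mouse in the 4 groups of sex and catalepsy phenotype; blue points are deep libraries, orange points shallow ones, and black lines are group medians. The medians lie between 1146 and 1226, and the groups overlap.

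The responder minus non-responder difference, averaged over the sexes, was -0.02 on the log2(value + 1) scale (SE 0.088, 95% interval -0.19 to 0.16, limma adjusted p = 0.998). Of all 8535 genes tested in this comparison, 0.117% (10 genes, 5 higher and 5 lower in responders) passed an adjusted p of 0.05, and Egr3 was not one of them. Within females the difference was -0.03 (SE 0.13), within males -0.0023 (SE 0.12). The test of the difference between these gave 0.03 (SE 0.18, adjusted p = 1.0), and in this comparison 0% of genes passed by limma, edgeR or DESeq2, with 48 genes at an unadjusted limma p under 0.05.

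The sign of the Egr3 estimate rested on single libraries. Without mouse 63, the library of highest 3′ bias and lowest Egr3, the difference was 0.02 (SE 0.082, limma adjusted p = 0.999), and without mouse 27, 33 or 53 it was 0.0015, 0.0024 and 0.0088. Among the deep libraries it was -0.06 and among the shallow ones 0.11, neither past the threshold.

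Between the sexes, Egr3 ranged from 600.5 to 1868 scaled reads in 28 females (median 1200) and from 712.3 to 1755 in 32 males (median 1161). The male minus female difference was -0.04 on the log2 scale (SE 0.088, 95% interval -0.21 to 0.14, limma adjusted p = 1.0). In this comparison 0.0234% of genes, 2 genes, passed. The spread was wider in females, with a CV of 0.263, than in males, with 0.199, and the difference between these CVs was not tested.

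Egr3 lies on the plus strand of mouse chromosome 14, and its 3 exon rows start at positions 70477252, 70477831 and 70478703 of mm9. The spacing of these starts matched the GENCODE M21 models of the gene. Row 1 matched the start of the coding part of the first exon, row 2 an internal exon of 53 bases that 1 transcript holds, and row 3 the last exon, which is 3655 bases long in its longest form and holds the remaining coding sequence and the 3′ untranslated region.

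Row 3 took nearly all Egr3 reads. It had between 580 and 1744 scaled reads per mouse (median 1094), on average 93.8% of the gene. Row 1 had between 19 (mouse 63) and 127 (mouse 15), with a median of 70, or 5.90% of the gene on average. Row 2 had between 0 and 14 with a mean of 3.63, was at 0 in 4 mice and fell below the minimum mean of 10 set for testing. Rows 1 and 3 are separate sets of reads, and they moved together over mice, with a Pearson r of 0.739 and a Spearman rho of 0.743 (adjusted p = 3.5e-05 and 4.67e-05 by permutation of mice over 14 relations; the raw p of 1e-05 is the smallest that 100000 permutations can give). The r was 0.698 without the 2 mice farthest from the median, 0.761 in deep and 0.761 in shallow libraries. The mouse-to-mouse differences in Egr3 were thus seen at both ends of the gene.

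By phenotype, row 1 ranged from 36 to 116 scaled reads in non-responders (median 68) and from 19 to 127 in responders (median 74), and row 3 from 653 to 1744 (median 1110) and from 580 to 1738 (median 1086). The responder minus non-responder difference was 0.07 on the log2 scale for row 1 (SE 0.11, 95% interval -0.16 to 0.30) and -0.02 for row 3 (SE 0.088, 95% interval -0.20 to 0.15), both with an adjusted p of 1.0 in limma, where 0.0192% of 67578 exon rows passed. In a test of exon usage, which sets an exon row against the rest of its gene, row 1 differed by 0.09 and row 3 by -0.09 (SE 0.15, limma adjusted p = 1.0), and 0.133% of 66690 exon rows passed. Neither row of Egr3 was among them.

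The share of Egr3 in row 1 varied from 3.17% in mouse 63 to 8.41% in mouse 29, with a median of 5.96%. Its median was 6.56% in shallow libraries, whose median 3′ bias was lower, and 5.62% in deep ones. It fell with the 3′ bias of the library, with r = -0.533 (adjusted p = 3.5e-05) and rho = -0.441 (adjusted p = 0.0014) over the 60 mice, by permutation and over 14 relations. Without the 2 mice farthest from the median bias r was -0.455, in the 43 deep libraries -0.533, and in the 17 shallow ones -0.112 (adjusted p = 0.721). Its relation to the Egr3 level itself did not pass (r = -0.032, adjusted p = 0.808), but without mice 63, 5, 4 and 62 it was r = -0.299 (adjusted p = 0.0385, rho = -0.242).

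The total Egr3 level also moved with properties of the libraries, which were compared in 16 relations by permutation of mice. With 3′ bias, r was -0.403 (adjusted p = 0.00304) and rho -0.179 (adjusted p = 0.227), and without the 2 mice of most extreme bias r was -0.114, so the relation rested on those mice. With the cortical score, r was 0.481 (adjusted p = 0.000224), rho 0.574 (adjusted p = 8e-05), and r 0.593 without the 2 farthest mice. Within deep libraries r was 0.597 (adjusted p = 0.000213), and 0.57 without the 2 farthest mice. Within shallow libraries it was 0.214 (adjusted p = 0.407), and 0.628 without the 2 farthest mice, where mouse 56 combined a score of -2.74 with an Egr3 value of 1640 scaled reads. With the log2 number of recovered reads, r was 0.129 over all mice (adjusted p = 0.372), 0.349 in deep (adjusted p = 0.036) and 0.512 in shallow libraries (adjusted p = 0.0512). In tissue samples of this kind, fewer cells of a type and less RNA per cell cannot be told apart.

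**Figure D2:**
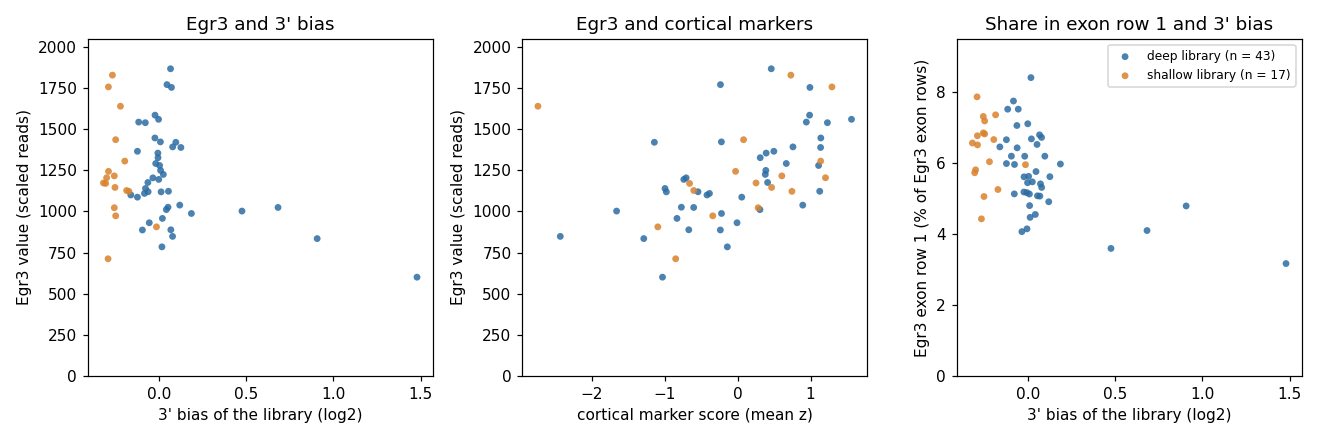
Left and middle, Egr3 value in scaled reads against the 3′ bias of the library (log2) and against the cortical marker score (mean z-score of 4 genes). Right, percent of Egr3 exon values in exon row 1 against the 3′ bias; each point is a mouse, blue for the 43 deep and orange for the 17 shallow libraries. Mouse 63 is the point at a bias of 1.48, with the lowest Egr3 value (600.5) and the lowest share in row 1 (3.17%).

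The largest single axis of variation in the table, the first principal component of the 8534 genes other than Egr3, held 33.9% of their total variance. Its lowest scores were those of mice 63 (-3.87), 5 (-2.61), 62 (-2.48) and 4 (-2.26), the mice of highest 3′ bias. The shallow libraries all had positive scores except that of mouse 26 (-0.246). The component was thus not separate from 3′ bias and depth. The sign of the component was set so that its correlation with Egr3 was positive. Egr3 correlated with the component at r = 0.573 (adjusted p = 8e-05) and rho = 0.484 (adjusted p = 0.000384) by permutation. Within deep libraries r was 0.673 and within shallow ones 0.593. The component accounted for 32.8% of the variance of log2 Egr3, against 23.1% for the cortical score, 16.3% for the 3′ bias and 0.174% for the depth class. Depth class, 3′ bias and cortical score together also accounted for 32.8%.

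Against the other 8534 genes, Egr3 was positively correlated with 2841 genes (33.3%) and negatively with 2275 (26.7%) at an adjusted p of 0.05, by permutation of mice on log2 values. With so many genes past the threshold, a correlation with Egr3 is the common case in this table, and the share of any list is to be read against these percentages. The median r over all genes was 0.043, from -0.719 to 0.802. The counts depended on the libraries and covariates used. After removal of depth class, 3′ bias and cortical score by regression, 21.5% of genes were positive and 11.9% negative, and after removal of the first component 16.6% and 10.7%.

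The 10 genes whose levels followed Egr3 most closely had r between 0.757 and 0.802. In order they were Zbtb7a, a zinc finger transcriptional repressor, Cbarp, a regulator of voltage-gated calcium channels, Mef2d, a calcium-responsive MADS box transcription factor, Ripor1, Pom121, a membrane protein of the nuclear pore, Synpo, an actin-associated protein of the dendritic spine apparatus, Kif3c, a kinesin motor, Bcor, a transcriptional corepressor, Cobl, an actin nucleator, and Phrf1, a ubiquitin ligase. All 10 passed the threshold under each of the 18 alternatives described in the closing section. They were picked by r over the same mice that the alternatives use, so passing again is not independent support. Membership of the first 10 was less stable, with 6 of them among the first 10 in deep libraries, 1 in shallow libraries and 3 after removal of depth class, 3′ bias and cortical score.

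Zbtb7a had a lowest value of 1551 scaled reads in mouse 63, a median of 2750 and a highest of 3689 in mouse 55. Its r with Egr3 was 0.802 (adjusted p = 7.05e-05) and its rho 0.786 (adjusted p = 9.31e-05). The r was 0.761 without mice 42 and 63, the 2 farthest from the Egr3 median. It was 0.825 in deep and 0.81 in shallow libraries, 0.816 in non-responders and 0.796 in responders. After removal of depth class, 3′ bias and cortical score it was 0.72, and after removal of the first component 0.693.

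Mef2d ranged from 1823 scaled reads in mouse 63 over a median of 3512 to 4290 in mouse 15, the same mice that marked the ends of the Egr3 range. Its r was 0.791 and its rho 0.791 (adjusted p = 7.05e-05 and 9.31e-05), with 0.761 without the 2 farthest mice, 0.833 in deep, 0.756 in shallow libraries and 0.702 after removal of the first component. None of the 10 genes passed the test between responders and non-responders. Their log2 differences lay between -0.095 (Pom121) and 0.024 (Cobl), with limma adjusted p of 0.998 for each.

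**Figure D3:**
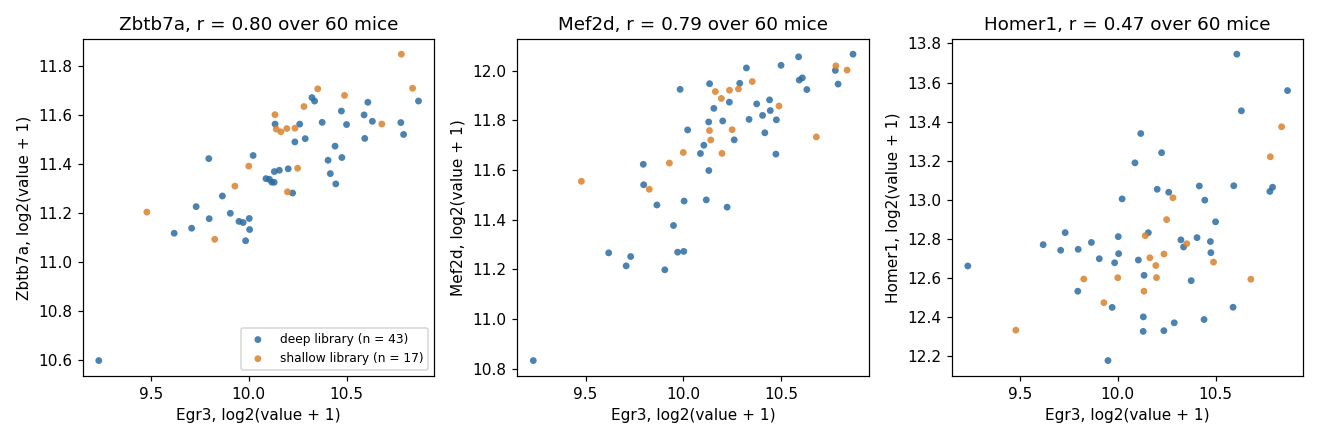
Zbtb7a, Mef2d and Homer1 (vertical axes) against Egr3 (horizontal axes), all as log2(scaled reads + 1), 1 point per mouse, blue for deep and orange for shallow libraries. Zbtb7a and Mef2d follow Egr3 closely (r = 0.802 and 0.791) with mouse 63 at the lower left, while Homer1 is more scattered (r = 0.471).

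The genes correlated with Egr3 differed in transcript length and base composition. The longest GENCODE transcript, known for 98.4% of the genes, had a median length of 5332 bases for positively correlated genes, 2198 for negatively correlated ones and 3612 for the rest. Across genes, which are not independent replicates, the Spearman correlation between r and transcript length was 0.577, and 0.3015 after removal of 3′ bias. That between r and GC content was 0.16, then 0.309 after removal of 3′ bias and 0.441 after removal of the first component. The median GC content of the 10 closest genes was 56.7% against 49.1% for genes that did not pass. The longest Egr3 transcript has 3940 bases and 51.4% GC. Length and GC content therefore moved with the correlation, and their part in it was not tested.

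Upstream of immediate early genes lie calcium and cyclic AMP signals, the MAP kinases and the factors CREB, SRF and MEF2 with their coactivators. Of 28 such regulators listed, 25 were tested, of which 9 were positively and 1 negatively correlated with Egr3 (median r 0.142, against 0.043 for all genes). The positive share, 9 of 25, was near that of all genes. With depth class, 3′ bias and cortical score removed, 10 of the 25 were positive and 0 negative, and after removal of the first component 4 were positive and 1 negative, to be read against the percentages of all genes under the same removal given above. Highest were Mef2d (r = 0.791), Ep300, the histone acetyltransferase p300 (r = 0.55, rho = 0.534), and Prkacb, a catalytic subunit of protein kinase A (r = 0.494, rho = 0.458). The r of Ep300 was 0.0497 (adjusted p = 0.803) after removal of the first component, while that of Prkacb was 0.377 (adjusted p = 0.0197). Ep300 also did not pass in males (r = 0.275, adjusted p = 0.269), non-responders (adjusted p = 0.0748) or shallow libraries (adjusted p = 0.219). Prkacb did not pass in males (r = 0.431, adjusted p = 0.0673), responders (r = 0.318, adjusted p = 0.142) or shallow libraries (adjusted p = 0.0525). Each passed under the other alternatives of the closing section. Srf, which drives several immediate early genes through serum response elements, had an r of 0.084 (adjusted p = 0.594) over all mice and 0.234 without mouse 63. After removal of the 3 library measures the r of Srf was 0.442 (adjusted p = 0.00325), and after removal of the first component 0.465 (adjusted p = 0.00249). Creb1 had an r of -0.028 (adjusted p = 0.865), and -0.282 (adjusted p = 0.0749) after removal of the 3 measures. The 1 negative gene was Mapk3, the kinase ERK1, with r = -0.382 (adjusted p = 0.00563), which no longer passed after removal of the 3 library measures (r = -0.033, adjusted p = 0.87).

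Of 60 other activity-regulated genes listed, 19 were tested. Of these 8 were positively and 1 negatively correlated with Egr3, and 10 did not pass (median r 0.272, against 0.043 for all genes). Of all genes 33.3% were positive and 26.7% negative. Highest were Sik2, a salt-inducible kinase that retains CRTC coactivators in the cytoplasm (r = 0.662, rho = 0.599), Pcsk1, a prohormone convertase (r = 0.62, rho = 0.62), and Inhba, a subunit of activin (r = 0.553, rho = 0.514). After removal of depth class, 3′ bias and cortical score, 7 genes were positive and none of the 19 negative, against 21.5% and 11.9% of all genes. After removal of the first component, again 7 were positive and none negative, against 16.6% and 10.7% of all genes. The r was then 0.409 for Sik2, 0.406 for Pcsk1 and 0.187 for Inhba (adjusted p = 0.275). In males the r was 0.388 for Sik2 (adjusted p = 0.104) and 0.194 for Inhba (adjusted p = 0.45), against 0.796 and 0.763 in females. In shallow libraries Sik2 (r = 0.64, adjusted p = 0.0618) and Inhba (r = 0.429, adjusted p = 0.24) did not pass either. Inhba also did not pass in non-responders (r = 0.355, adjusted p = 0.117), while Pcsk1 passed under all 18 alternatives. Among the transcription factor genes of this list, which were picked out by family and not by the naming rule, Nr4a2 (r = 0.299, adjusted p = 0.0374) and Klf6 (r = 0.408, adjusted p = 0.00311) passed, while Jund (r = 0.187, adjusted p = 0.206) and Crem (r = -0.108, adjusted p = 0.493) did not. These calls depended on the libraries. With those 3 library measures removed, Nr4a2 had -0.205 (adjusted p = 0.219), Klf6 -0.042 (adjusted p = 0.836), Crem 0.002 (adjusted p = 0.993) and Jund 0.385 (adjusted p = 0.0125). After removal of the first component, Jund had 0.54 (adjusted p = 0.000729). Without mouse 56 the r of Nr4a2 was 0.467. The 1 negative gene, Gadd45g, had r = -0.338 (adjusted p = 0.0162) over all mice, -0.202 without mouse 63 and 0.049 in shallow libraries, and it no longer passed after removal of the 3 measures (r = 0.043) or of the first component (r = -0.026).

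No gene of either list passed the test by phenotype. Over the 19 activity-regulated genes the log2 difference of responders from non-responders had a median of -0.013 and lay between -0.12 and 0.14 (smallest limma adjusted p 0.921), with 0 genes at an unadjusted p under 0.05. Over the 25 regulators the median was -0.015, between -0.086 and 0.15 (smallest adjusted p 0.657), with 1 gene at an unadjusted p under 0.05. The median over all genes tested was -0.0029. The comparisons by sex and of sex by phenotype likewise called 0 genes of both lists.

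Of the 9 symbols listed for dopamine and striatal receptor signalling, with Drd1 listed also as Drd1a, 4 were tested. Drd1 had no row under either symbol and was not analysed here. Penk (r = -0.046), Drd2 (r = -0.092) and Adora2a (r = -0.21), which mark projection neurons of the indirect pathway, where haloperidol blocks the D2 receptor, did not pass. Tac1, a peptide precursor of direct-pathway neurons, was negatively correlated with Egr3 (r = -0.456, adjusted p = 0.000735). After removal of depth class, 3′ bias and cortical score, Penk had an r of 0.45 (adjusted p = 0.00315) and Drd2 of 0.378 (adjusted p = 0.0142), while Adora2a had 0.154 (adjusted p = 0.372) and Tac1 -0.113 (adjusted p = 0.529). Removal of these measures thus turned the sign of Penk, Drd2 and Adora2a, brought Penk and Drd2 past the threshold and left Tac1 negative but no longer past it. After removal of the first component none of the 4 passed. Their log2 differences between phenotypes lay between -0.031 and 0.034 (smallest limma adjusted p 0.998).

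**Figure D4:**
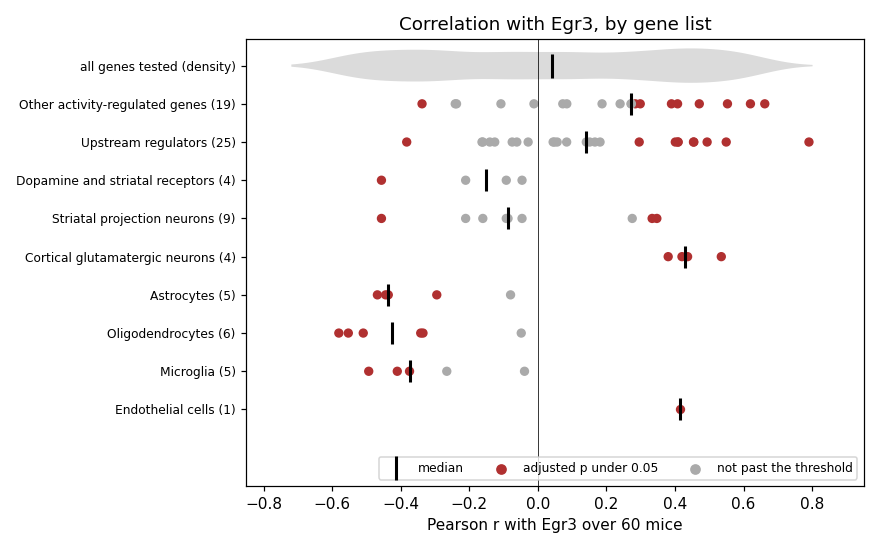
Pearson r with Egr3 over 60 mice (horizontal axis) for the tested genes of each list (rows, with the number of genes); the grey shape is the density of all 8534 genes, black ticks are medians, red points passed an adjusted p of 0.05 and grey points did not. The activity-regulated genes have a median of 0.272, the cortical markers 0.429 and the oligodendrocyte markers -0.425.

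Cell type markers moved with Egr3 as well, to be read against the 33.3% of all genes that were positive and 26.7% negative. All 4 cortical markers were positively correlated (median r 0.429, from 0.38 to 0.535), while 4 of 5 astrocyte markers (median -0.436), 5 of 6 oligodendrocyte markers (median -0.425) and 3 of 5 microglial markers (median -0.374) were negatively correlated and none of these 3 lists had a positive member. The endothelial marker Flt1 was positive (r = 0.415). Of the 9 striatal projection neuron markers 2 were positive, 1 negative and 6 did not pass (median -0.087). Mbp, the myelin basic protein gene, which was chosen after its value was seen, had r = -0.58, -0.556 in deep and -0.715 in shallow libraries. With depth class, 3′ bias and cortical score removed, 3 of 5 astrocyte, 2 of 6 oligodendrocyte and 1 of 5 microglial markers still passed as negative. Of the 9 striatal projection neuron markers 3 were then positive and 0 negative (median r 0.258), and Flt1 no longer passed (r = 0.283). Of all genes 21.5% were positive and 11.9% negative under this removal. After removal of the first component no gene of the striatal, astrocyte, oligodendrocyte and microglia lists passed, and 1 of the 4 cortical genes did. The summed level of the oligodendrocyte markers ranged from 92010 to 248700 scaled reads in non-responders and from 97690 to 269500 in responders. The astrocyte sum ranged from 98510 to 172800 and from 83470 to 176900, and the microglial sum from 3418 to 8122 and from 3181 to 7541, in the same order, so these sums overlapped between phenotypes. The astrocyte markers Gfap and Aqp4 and the cortical marker Slc17a7 had no row and were not analysed here. The part of cell composition in the Egr3 differences between mice was not tested.

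Homer1 is a postsynaptic scaffold gene whose short form, Homer1a, is an immediate early transcript that ends within the gene, while the long forms are made constitutively. Homer1 (ENSMUSG00000007617) had a lowest value of 4637 scaled reads, a median of 6906 and a highest of 13730 in mouse 13. Its r with Egr3 was 0.471 (adjusted p = 0.00062) and its rho 0.427 (adjusted p = 0.00249), and r was 0.458 without the 2 farthest mice. It was 0.4 in deep and 0.759 in shallow libraries, a difference that was not tested, and 0.474 after removal of the first component. By phenotype Homer1 ranged from 5142 to 13730 scaled reads in non-responders and from 4637 to 12070 in responders, with a log2 difference of -0.02 (limma adjusted p = 0.998).

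The exon table split Homer1 into 13 rows on chromosome 13 (mm9, plus strand), of which 9 averaged at least 10 and were tested. Row 7, which starts at 94125895, matched an exon that is 140 bases long in the long forms and runs to 4523 bases as the last exon of the short transcript Homer1-204. It ranged from 809 to 6111 scaled reads with a median of 1946 and took 28.7% of the gene on average. Row 13, the last exon of the long forms, ranged from 2049 to 4378 with a median of 2994 and took 42.7%. The values of row 7 thus spread over a wider range than those of row 13.

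Row 7 correlated with Egr3 at r = 0.382 (adjusted p = 0.00296 over the 9 rows) and rho = 0.356 (adjusted p = 0.00694), at r = 0.401 without the 2 farthest mice, at 0.286 in deep and 0.8 in shallow libraries. Row 13 correlated at r = 0.203 (adjusted p = 0.132) and row 8, the last exon of another short transcript, at r = 0.097 (adjusted p = 0.459). The highest r among the rows was not that of row 7 but that of row 1, the first exon (r = 0.731, adjusted p = 2.25e-05, rho = 0.699), and rows 4, 5, 6, 10 and 11, exons of the coding region, had r between 0.564 and 0.645. These rows correlated negatively with the 3′ bias of the library, row 1 at -0.729 and row 10 at -0.657, while rows 7 and 13 had 0.142 and 0.064 (descriptions over the same 60 libraries). After removal of depth class, 3′ bias and cortical score, r with Egr3 was 0.616 for row 1, 0.429 for row 7 and 0.121 for row 13, and after removal of the first component 0.563, 0.52 and 0.215.

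**Figure D5:**
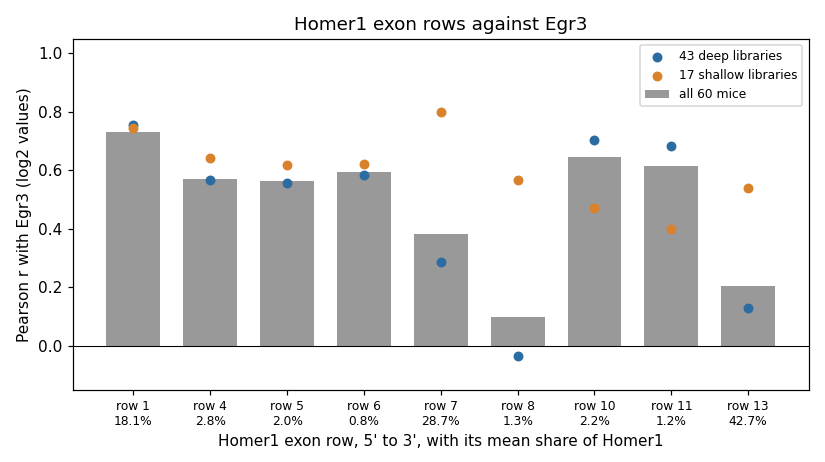
Pearson r with Egr3 (vertical axis, log2 values) for the 9 tested exon rows of Homer1 in transcript order, with the mean share of each row in the gene; bars are all 60 mice, blue points the 43 deep and orange points the 17 shallow libraries. Row 1 has the highest bar (0.731), and row 7, which holds the last exon of the short form, has 0.382 over all mice with 0.286 in deep and 0.8 in shallow libraries.

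By phenotype, Homer1 row 7 differed by 0.0014 on the log2 scale (SE 0.15, 95% interval -0.30 to 0.30) and row 13 by 0.0020 (SE 0.055, 95% interval -0.11 to 0.11), with limma adjusted p of 1.0 for both. By sex, row 7 was lower in males by an estimate of -0.36 (SE 0.15), with an unadjusted p of 0.019 and an adjusted p of 1.0 over all exon rows, where 0.00148% passed in the comparison by sex. No exon row of Homer1 passed in exon usage between responders and non-responders.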

How the data were processed

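Striatal polyA RNA-seq libraries of 60 mice were analysed. Gene values, as deposited, are a signal: the authors counted reads on Ensembl union exon models and multiplied them by an upper quartile factor per library. Exon values, as deposited, are a score, counts per exon scaled likewise and rounded to whole numbers. Per the submitters' processing notes, reads were aligned with Bowtie 0.12.7 to mm9 and scaled with edgeR 3.4.2 in R 3.0.2. According to the study's methods, genes of low counts and of low exon connectivity were removed; how this bears on the 9 listed genes without a row was not tested. Whole reads were recovered from the gene table (all values within 0.001 of a whole read, largest deviation 6.53e-05). Symbols were found for 97.7% of identifiers.

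Groups came from the labels. limma 3.58.1 with trend was fitted to log2(value + 1) of the 8535 genes, or 67578 exon rows, averaging at least 10, over 4 groups, with diffSplice for usage, in R 4.3.3. edgeR 4.0.16 and DESeq2 1.42.0 on recovered reads were alternatives. Adjusted p are Benjamini-Hochberg over all genes or rows. Correlations were Pearson on log2(value + 1) with 100000 two-sided permutations of mice (Python 3.11.15, numpy 2.4.6). The planned correlation between members could not be run with 1 member, so Egr3 was correlated with the 8534 other genes. In simulated data limma recovered 97% of 200 genes given a log2 change of 0.5, with 11 false calls. With 200 genes at r = 0.6, the permutation test recovered 95% with 6 false calls. For exon usage, diffSplice recovered all 200 exon rows given a log2 change of 1.0, with 52 false calls in the direction of that change. False calls in the other direction were not counted for diffSplice. How far these figures hold for the measured genes, many of which vary together, was not tested. Depth class, 3′ bias, cortical score and first component were computed from the same tables. Removal of a measure means correlation of regression residuals.

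The members and gene lists were chosen with earlier results of these data known. Named were the members, the 10 genes of highest r, Homer1 with its exon rows and the 3 genes of highest r per list. Srf, Creb1, Mapk3, Nr4a2, Klf6, Jund, Crem, Gadd45g, Tac1, Flt1 and Mbp were chosen after their values were seen. Nothing in the labels says more of the independence of mice, and p-values measure the spread between these libraries. GENCODE M21 gave exon structure by spacing of starts, with no conversion of coordinates.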

Additional observations from a re-analysis of the deposited data

How the results depend on the processing

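Egr3 was past the threshold in none of the 14 alternatives (scale, filter, tool, covariates, subsets) or 60 single-mouse omissions of each group comparison. The estimate, near 0, changed sign in some. Responder minus non-responder became 0.011 with 3′ bias, 0.0086 with the cortical score and 0.00076 with the first component as covariate, 0.019 without mouse 63 and 0.11 in shallow libraries; without 1 mouse at a time it ran from -0.042 to 0.019. Male minus female became 0.065 in deep libraries (-0.073 to -0.013 without 1 mouse). The sex by phenotype estimate became -0.0074 with edgeR, -0.0092 with DESeq2, -0.043 without mouse 63 and -0.11 in deep libraries (-0.043 to 0.079 without 1 mouse). Exon row 3 became 0.0025 with 3′ bias as covariate and 0.011 without mouse 63, and usage of row 1 became -0.093 with no filter, since row 2 then entered. Genes called by phenotype, 10 of all, were between 0 (shallow) and 73 (first component as covariate), by sex, 2 of all, between 0 and 4. Genes correlated with Egr3, 5116 in both directions, were 3387 after removal of the cortical score, 2848 after removal of the 3 library measures, 2328 after removal of the first component, 601 in shallow libraries, 3111 in 30 non-responders (3732 in 30 responders) and 1536 in 32 males (4846 in 28 females); the cause was not tested. Among 378 values for 21 named genes under 18 alternatives, 337 kept direction and call, 22 lost the call and 19 changed sign. The lost calls were of Sik2, Inhba, Ep300, Prkacb, Homer1, Tac1 and Mbp. The sign changes were of Penk (Spearman 0.021, 3′ bias 0.211, cortical score 0.233, 3 measures 0.45, without mouse 63 0.0959, shallow 0.464, males 0.0586, without mice 63, 5, 4 and 62 0.242, first component 0.209), Drd2 (0.0903 with 3′ bias removed, 0.244 cortical score, 0.378 the 3 measures, 0.0425 shallow, 0.0178 responders, 0.0857 without those 4 mice, 0.151 first component) and Adora2a (0.0369 cortical score, 0.154 the 3 measures, 0.0863 first component). The first component and the omission of mice 63, 5, 4 and 62 were chosen after seeing the data. No paired analysis was possible because each mouse has its own number and no number is shared between groups.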
